A study of Sus scrofa with 23 samples.

Results

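The genes described here are the cyclins, the cyclin-dependent kinases (CDKs) and the proteins that license and fire DNA replication, read in porcine oocytes and early embryos. They were chosen by symbol alone, as the genes of the deposited table named CCN plus a letter, CDK, CDKN, CDC, MCM, ORC1 to ORC6, E2F or WEE. The rule found 85 of the 8603 genes of the table, whose label names differentially expressed genes. Shares of all genes below refer to that selected set, to which the members also belong. It takes symbols and not functions, so it also brings in genes that only share such a name, among them CDC42 and its effectors, the splicing factors CDC40 and CDC5L, and CDC123, a factor of translation initiation. By role the members fell into 4 mitotic cyclins and CDK1, 4 regulators of CDK1 phosphorylation, 5 G1 cyclins and CDKs, 4 CDK inhibitors, 18 replication licensing and firing factors, 3 E2F factors, 4 subunits of the anaphase-promoting complex (APC/C), 12 transcription and RNA cyclins and CDKs, 17 other cyclin and CDK names and 14 other CDC and MCM names. A further 31 symbols that match the rule, such as CCNA2, CDK2, CCND1, CDC20, CDKN1B and E2F1, were not analysed here.

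The libraries analysed here hold RNA of 23 conditions in 3 groups, with 1 library each, from a study that compared cloned embryos with fertilized ones. Its donor cells and its replicates of some stages were not analysed here. IV-D embryos were Duroc, conceived in the sow, all from 1 Duroc boar, with in vivo matured oocytes of 2-year-old Duroc sows as the first stage. NT-D embryos were clones made by nuclear transfer with ear fibroblasts from that boar, NT-LW embryos clones with those of a Laiwu boar, both animals being 1 year old. Each clone group therefore stands for 1 cell line. Both kinds of clones were built in oocytes matured in vitro from slaughterhouse ovaries and were cultured in PZM3 medium, and the library labelled NT-D oocyte holds such oocytes, labelled Duroc but taken from hybrid sows by the study's methods. Libraries of clones pooled about 5 to 10 embryos. By the study's text the clones were all male, whereas IV-D libraries mixed embryos of both sexes. Blastocysts were cut with a knife into a pure trophectoderm part, TE, and a part with both inner cell mass and trophectoderm, IT. With 1 library per condition there was no replicate check and no test between conditions, so every difference below is a difference between 2 libraries.

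Cyclins bind CDKs and set when those kinases act. Cyclin D with CDK4 and cyclin E with CDK2 carry cells through G1 into S phase, and cyclin B with CDK1 drives entry into M phase. Origins of replication are bound by the origin recognition complex (ORC), on which CDC6 loads the ring of MCM2 to MCM7, which is later switched on as the replicative helicase. Oocytes store cyclin B and replication factors as RNA and protein, and the first cleavages run largely on that store, before the embryo's own genome takes over.

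Levels are FPKM, fragments scaled to gene length and to the total mapped. Ratios between genes also depend on the gene models and on equal capture and amplification of each transcript, which was not tested. Whole fragments could be read back from the FPKM steps. The libraries held 14952784 to 22991067 fragments, of which the members took 0.360% to 1.28%. Of the 85 members, 64 to 81 reached FPKM 1 in a library, with a median of 75. A level of 3 fragments is 0.130 to 0.201 FPKM for a gene of 1 kb, so values under that are near the counting limit. In bulk samples fewer cells of a type and less RNA per cell cannot be told apart.

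The libraries were checked against markers. KRT8, a trophectoderm keratin, was at most 0.607 FPKM up to the 8-cell stage and at 441 to 1033 in the IT and TE parts, and NANOG was 0 in all 3 TE libraries and 9.8, 5.0 and 3.76 in the IT parts of IV-D, NT-D and NT-LW. Summed over each list these parts were less distinct. The 7 inner cell mass markers in the table summed to 201 FPKM in IT and 203 in TE of IV-D, 344 and 253.5 in NT-D and 428.5 and 315.5 in NT-LW, with DPPA5 at 49.6 in IV-D IT and 168 in IV-D TE. The 10 trophectoderm markers summed to 1653 in IT and 1611 in TE of IV-D. In the clones that sum was higher in TE, at 1591 and 2419 in NT-D and 1996 and 3304 in NT-LW.

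The groups did not move alike over the first steps. From oocyte to 1-cell, 145 of the 184 genes that passed the fold rule in both IV-D and NT-LW went in opposite directions, against 32 of 164 for IV-D and NT-D and 0 of 201 for both clone groups, which share the oocyte library. From 1-cell to 2-cell it was 111 of 227 for IV-D and NT-LW, 139 of 251 for NT-D and NT-LW and 8 of 1150 for IV-D and NT-D. At this step NT-LW thus differed from both other groups, and its 1-cell and 2-cell libraries cannot be told apart as the source. S100A4, a transcript of fibroblasts, was 39.9 FPKM in the IV-D 1-cell library and at most 0.12 in the other IV-D libraries, although those embryos received no donor cell. The library preparation and counting are not stated to keep the strand, so reads of a gene and of one overlapping it on the other strand cannot be told apart.

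**Figure D1:**
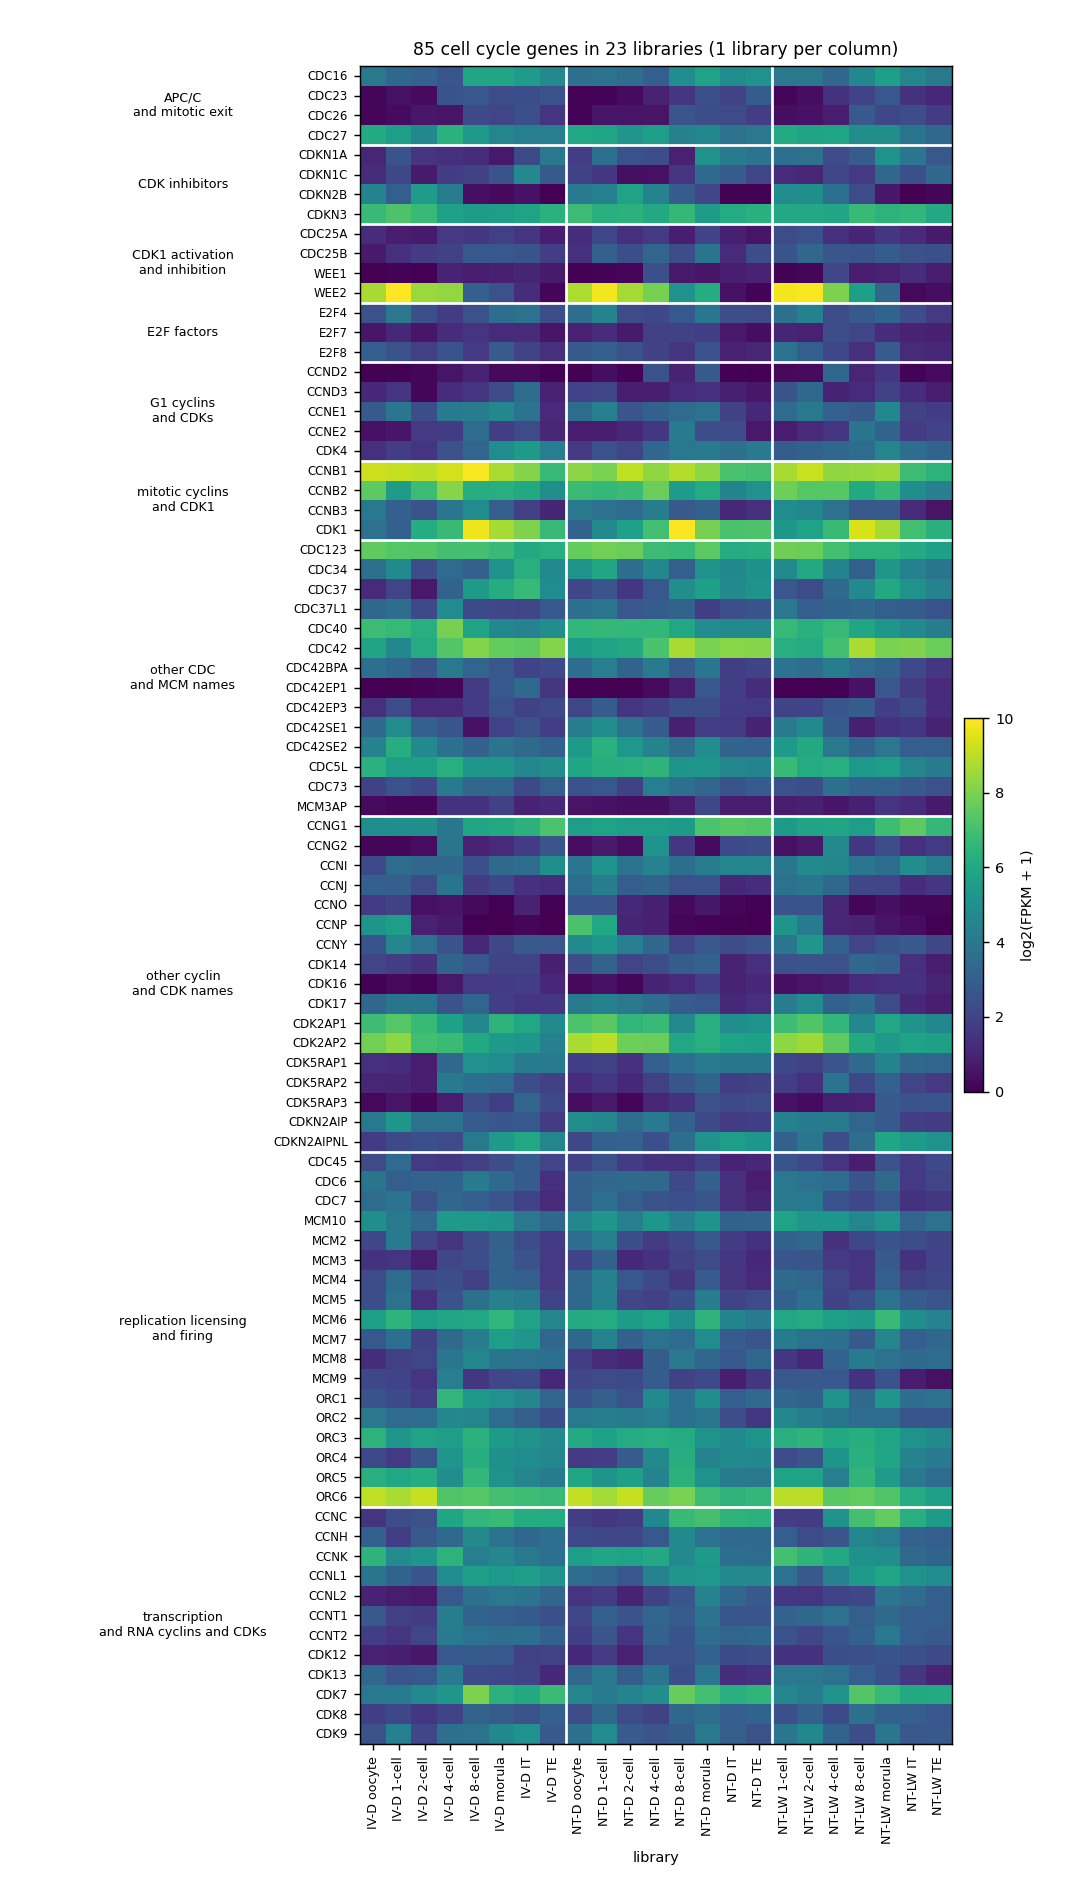
Heat map of log2(FPKM + 1) of the 85 members (rows, by role) in the 23 libraries (columns, by group and stage, 1 library each). CCNB1, CDK1, WEE2, ORC6 and CDK2AP2 each pass 500 FPKM in at least 1 library, and WEE2 is bright up to the 4-cell stage while CDK1 is brightest at the 8-cell stage.

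Among the mitotic genes, CCNB1 (cyclin B1) was abundant in every library and CDK1, its kinase, was low in the oocyte and highest at the 8-cell stage. In IV-D embryos CDK1 was 12.3 in oocytes, 7.71, 71.9, 108 and 869 in 1-, 2-, 4- and 8-cell embryos, 413 in morulae, 268 in IT and 106 in TE. In the NT-D series it was 7.78 in oocytes, 25.9, 52.5, 123 and 987 in 1-, 2-, 4- and 8-cell embryos, 247 in morulae, 139 in IT and 148 in TE. NT-LW libraries gave 37.8, 55.1, 109.7 and 668 in 1-, 2-, 4- and 8-cell embryos, 408 in morulae, 123 in IT and 81.2 in TE. All 3 groups thus had their CDK1 maximum at the 8-cell stage, with the 1-cell clones above the 1-cell IV-D embryos. CCNB1 was 602 in oocytes, 557, 517, 643 and 965 in 1-, 2-, 4- and 8-cell embryos, 424 in morulae, 285 in IT and 106 in TE in IV-D. The NT-D values were 307 in oocytes, 251, 522, 324 and 457 in 1-, 2-, 4- and 8-cell embryos, 312 in morulae, 139.8 in IT and 128 in TE, and the NT-LW values 415, 576, 324 and 342 in 1-, 2-, 4- and 8-cell embryos, 375 in morulae, 117 in IT and 86.2 in TE. The 8-cell peak of CCNB1 in IV-D was above every clone library, whereas by the TE part the 3 groups lay between 86.2 and 128 FPKM. The ratio of CCNB1 to CDK1 FPKM was 48.7, 72.3 and 1.11 in IV-D oocytes, 1-cell and 8-cell embryos, and it was 0.463 and 0.511 in the 8-cell clones of NT-D and NT-LW.

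CCNB2, a second B-type cyclin, was highest at the 4-cell stage in IV-D (287 FPKM) and lowest before it at the 1-cell stage (44.5). The 1-cell clones held 99.6 in NT-D and 218 in NT-LW, and the 3 TE libraries held 19.4 to 32.7. CCNB3, a cyclin of meiosis, was 14 at the 4-cell and 27.9 at the 8-cell stage in IV-D, but 17.3 and 5.88 in NT-D and 12.8 and 5.93 in NT-LW. Its level was thus lower at the 8-cell than at the 4-cell stage in both clone groups and higher in IV-D.

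The 250 bases before the annotated start of CCNB1, CCNB3 and CDK1 are shown as examples of mitotic members with a CCAAT motif there. They come from RefSeq's annotation of Sscrofa11.1, the build of the deposited data, and run 5′ to 3′ on the gene's strand, with motif letters in capitals. The CCNB1 window is chr16:47337989-47338238 on the plus strand, that of CCNB3 is chrX:43922479-43922728 on the plus strand and that of CDK1 is chr14:64233695-64233944 on the plus strand.

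CCNB1: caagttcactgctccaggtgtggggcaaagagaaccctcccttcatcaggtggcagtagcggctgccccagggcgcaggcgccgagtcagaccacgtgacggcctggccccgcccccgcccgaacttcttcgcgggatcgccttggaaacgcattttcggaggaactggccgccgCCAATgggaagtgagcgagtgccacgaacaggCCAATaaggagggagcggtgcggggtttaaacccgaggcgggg

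CCNB3: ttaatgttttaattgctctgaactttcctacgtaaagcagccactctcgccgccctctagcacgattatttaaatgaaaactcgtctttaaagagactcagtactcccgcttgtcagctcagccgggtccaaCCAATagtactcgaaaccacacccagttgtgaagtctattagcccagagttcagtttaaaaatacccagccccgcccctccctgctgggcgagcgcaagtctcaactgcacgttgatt

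CDK1: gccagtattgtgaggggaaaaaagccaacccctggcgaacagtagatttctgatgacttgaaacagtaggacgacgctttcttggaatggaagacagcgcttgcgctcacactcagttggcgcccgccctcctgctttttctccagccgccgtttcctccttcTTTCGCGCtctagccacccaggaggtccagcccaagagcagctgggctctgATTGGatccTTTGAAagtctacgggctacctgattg

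Capitals mark CCAAT, the box bound by NF-Y, the cell cycle homology region (CHR) with the letters TTTGAA, and a core of E2F sites with the letters TTTNNCGC, each searched on both strands. CCAAT was in all 3 windows, 2 times in CCNB1 and 1 time in CCNB3 and CDK1, and CDK1 also held a CHR 27 bases and an E2F match 87 bases before the start. Over the 81 members with such a window CCAAT was found in 35.8%, against 34.3% of the 6811 genes of the table with a window and 31.9% of 19506 protein-coding genes, CHR in 12.3% against 11.2% and 12.5%, and E2F in 7.41% against 8.46% and 6.15%, so as a set the members were near the background. The matches are descriptions of letters, not of binding.

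The kinases and phosphatases that switch CDK1 differed in timing. WEE2, the kinase that holds CDK1 inactive in oocytes, was 417 in oocytes, 1046, 359.7, 331 and 7.29 in 1-, 2-, 4- and 8-cell embryos, 4.54 in morulae, 1.38 in IT and 0.133 in TE in IV-D embryos. NT-D libraries held 438 in oocytes, 915, 402, 243 and 34.3 in 1-, 2-, 4- and 8-cell embryos, 72.8 in morulae, 0.421 in IT and 0.0636 in TE, and NT-LW libraries 897, 948, 258 and 49.5 in 1-, 2-, 4- and 8-cell embryos, 8.89 in morulae, 0.162 in IT and 0.281 in TE. WEE2 was thus high to the 4-cell stage in each group, and at the 8-cell stage both clone libraries were above IV-D. The NT-D morula at 72.8 was above its own 8-cell library, while IV-D and NT-LW morulae were at 4.54 and 8.89. Oocyte markers moved with these values. Their summed FPKM over the 10 markers in the table was 42.4 in IV-D, 313 in NT-D and 556 in NT-LW at the 8-cell stage, and 12.1, 349 and 47.0 in the morula. Their part in the WEE2 difference was not tested.

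WEE1, the form of somatic cells, stayed at or under 1.02 in all 8 IV-D libraries and had its maximum in clones at the 4-cell stage, at 4.42 in NT-D and 3.41 in NT-LW against 1.0 in IV-D. The highest WEE1 of any later library was 1.4. CDC25B, a phosphatase that activates CDK1, reached 8.68 in the NT-D 4-cell library and 13.7 in the NT-D morula, against 2.84 and 5.64 in IV-D. CDC25A, its relative of G1 and S phase, ranged from 0.462 to 4.75 over all 23 libraries.

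**Figure D2:**
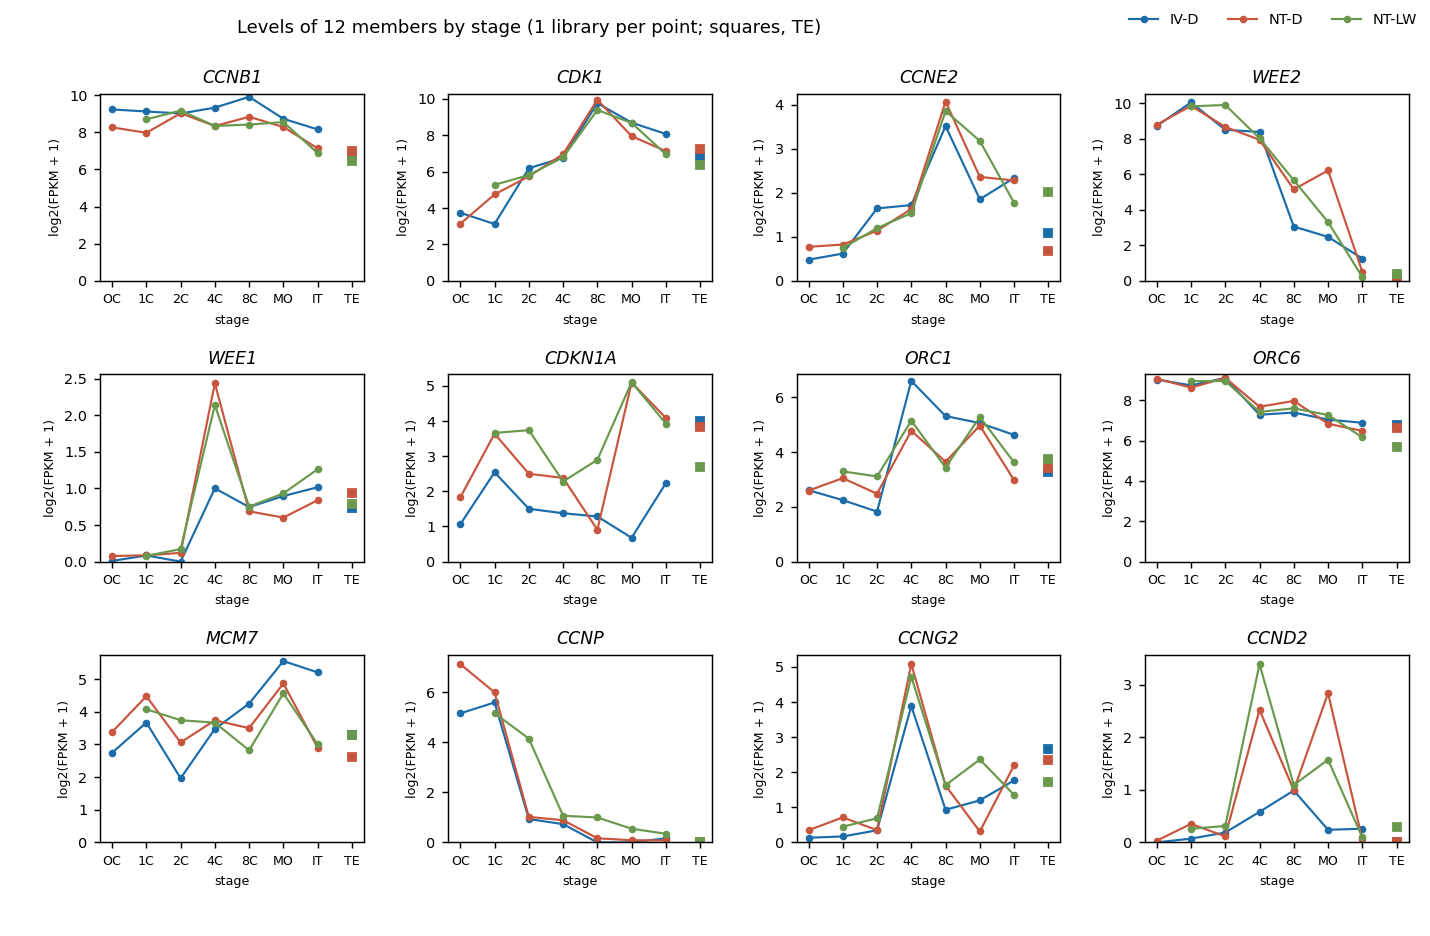
log2(FPKM + 1) by stage for 12 members, with IV-D in blue, NT-D in red and NT-LW in green, 1 library per point, lines from the oocyte (OC) through the 1-, 2-, 4- and 8-cell stages (1C to 8C) and the morula (MO) to IT, and squares for TE. CDK1 and CCNE2 peak at the 8-cell stage in every group, WEE1 and CCNG2 have their maximum at the 4-cell stage in both clone groups, and CDKN1A is above 5 in both cloned morulae and under 1 in the IV-D morula.

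Of the G1 genes, CCNE1 and CDK4 reached higher levels than the D-type cyclins CCND2 and CCND3. CCNE2 was 10.4, 15.8 and 13.5 at the 8-cell stage of IV-D, NT-D and NT-LW, its maximum in each group. CCNE1 was between 4.26 and 23.6 in IV-D up to the morula, held 13.2 in IV-D IT, and was 2.94 and 2.92 in the IT parts of the clones. In the TE parts it was 1.18 to 2.43. CDK4, the partner of cyclin D, was 1.55 in oocytes, 2.56, 1.91, 4.54 and 8.5 in 1-, 2-, 4- and 8-cell embryos, 28.2 in morulae, 42.6 in IT and 18.8 in TE in IV-D. The clones reached 16.7 and 22.5 in the morula and 11.9 and 10.8 in IT, so that the IV-D IT part had the highest CDK4 of all libraries. CCND3 had the same library on top, with 10.7 in IV-D IT against 0.563 to 1.41 in the 5 other blastocyst libraries.

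CCND2 was under 1 in all IV-D libraries. The 4-cell clones held 4.74 (NT-D) and 9.49 (NT-LW) against 0.496 in IV-D, and in the morula 6.15 and 1.98 against 0.181. Markers of fibroblasts, the donor cells, moved with it at the 4-cell stage. S100A4 was 95.3 and 114 in the 4-cell clones and 0 in IV-D, and the 7 fibroblast markers in the table summed to 130, 149 and 8.04 FPKM. The same sum was 95.8 and 99.7 in the 1-cell clones, where CCND2 was 0.276 and 0.198, so high markers and low CCND2 stood together there. Their part in the CCND2 difference was not tested.

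The CDK inhibitors differed in the stages at which they were high. CDKN2B (p15), an inhibitor of CDK4, was present in the oocyte (21.7 FPKM in IV-D), was highest at the 2-cell stage (45), and was at 0.322 at the 8-cell stage. The 8-cell clones still held 6.59 and 3.93. CDKN1A (p21), the inhibitor induced by p53, was 1.09 in oocytes, 4.83, 1.83, 1.6 and 1.44 in 1-, 2-, 4- and 8-cell embryos, 0.601 in morulae, 3.7 in IT and 15 in TE in IV-D. In NT-D it was 2.55 in oocytes, 11.5, 4.66, 4.21 and 0.875 in 1-, 2-, 4- and 8-cell embryos, 33.2 in morulae, 16 in IT and 13.1 in TE, and in NT-LW 11.7, 12.4, 3.86 and 6.45 in 1-, 2-, 4- and 8-cell embryos, 33.5 in morulae, 14.2 in IT and 5.5 in TE. Both cloned morulae were thus above 33 FPKM with the IV-D morula under 1, while in TE the NT-LW library was below IV-D. The gene model has 474 bases, so these rest on few fragments, 6 in the IV-D morula against 297 and 280 in the clones. CDKN1C (p57) was highest in IV-D IT at 24.8, with 6.37 and 4.37 in the cloned IT parts. CDKN3, a phosphatase that acts on CDKs, was between 44.5 and 148 FPKM in all libraries.

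Within the licensing factors the subunits of a complex differed widely in level. Of the 6 ORC subunits, ORC6 was the highest in each of the 23 libraries and ORC4, ORC1 or ORC2 the lowest. ORC6 was 523 in oocytes, 428, 553, 155 and 168 in 1-, 2-, 4- and 8-cell embryos, 131 in morulae, 118 in IT and 107 in TE in IV-D. ORC4 was lowest in the stages at which ORC6 was highest, at 3.56 in oocytes, 2.26, 5.32, 37.4 and 73.4 in 1-, 2-, 4- and 8-cell embryos, 31.8 in morulae, 28.3 in IT and 24.5 in TE. The ratio of the highest to the lowest subunit was 147 in the IV-D oocyte, 254 in the NT-D oocyte and 6.51 in the IV-D 4-cell library, the smallest of all. ORC1, the subunit whose amount changes with the cell cycle, was 2.54 at the 2-cell and 95.7 at the 4-cell stage in IV-D. The 4-cell clones held 26.4 in NT-D and 34.4 in NT-LW, and the 8-cell libraries 38.7, 11.5 and 9.82 in the order IV-D, NT-D, NT-LW. The morulae were alike at 30.2 to 37.9. CDC6, which loads the MCM ring, was 16.5 in the IV-D 8-cell library, its highest value anywhere, and 3.63 and 5.12 in the 8-cell clones.

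MCM6 was the most abundant of MCM2 to MCM7 in each of the 23 libraries, at 16.9 to 108 FPKM, although the ring holds 1 copy of each subunit. The lowest was MCM3 in most libraries, at 0.745 in the IV-D 2-cell library, where the ratio of highest to lowest reached 66.6. The sum of the 6 was 68.1, 142, 61.6, 83.8, 104, 185, 122 and 40.9 FPKM along the IV-D series from oocyte to TE, with the top in the morula. Without MCM6 it was 18.9 in the oocyte, 88.8 in the morula, 68.6 in IT and 18.5 in TE. In the cloned IT parts this second sum was 15.9 and 22.6, near the 13.4 and 23.7 of the cloned TE parts. MCM7 was 5.7 in oocytes, 11.7, 2.9, 10.1 and 18 in 1-, 2-, 4- and 8-cell embryos, 45.8 in morulae, 35.8 in IT and 8.74 in TE in IV-D. In NT-D it was 28.1 in the morula, 6.45 in IT and 5.17 in TE, and in NT-LW 22.6, 7.01 and 8.86.

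The window before MCM6 is shown because this gene stands apart from the other subunits of the ring. It lies at chr15:15923388-15923637 on the plus strand, with the same motifs in capitals.

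MCM6: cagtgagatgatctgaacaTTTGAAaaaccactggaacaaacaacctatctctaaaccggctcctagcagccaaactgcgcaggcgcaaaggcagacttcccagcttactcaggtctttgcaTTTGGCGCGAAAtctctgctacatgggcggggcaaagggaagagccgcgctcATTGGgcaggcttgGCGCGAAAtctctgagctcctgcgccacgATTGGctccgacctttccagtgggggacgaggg

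It held 3 matches to the E2F letters, 2 of which overlap each other on opposite strands, together with 2 inverted CCAAT boxes and a CHR 231 bases before the start. An E2F match was found in 2 of 17 licensing and firing members with a window. That is 11.8%, against 8.46% of genes of the table and 6.15% of protein-coding genes.

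MCM8 and MCM9, a separate pair that acts in recombination, differed from the ring and from each other. MCM8 was at most 3.31 up to the 2-cell stage of IV-D and reached 23.1 in 8-cell embryos. MCM9 was 18.2 at the 4-cell stage in IV-D, its maximum, with 6.48 and 5.54 in the clones. MCM10, which helps to switch on the helicase, was 40.4 and 41 in 4-cell and 8-cell IV-D embryos and highest of all in the NT-LW 1-cell library (54.3). CDC45, a part of the active helicase, and CDC7, the kinase that fires origins, were highest at 10.3 (IV-D 1-cell) and 15.6 (NT-LW 2-cell).

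**Figure D3:**
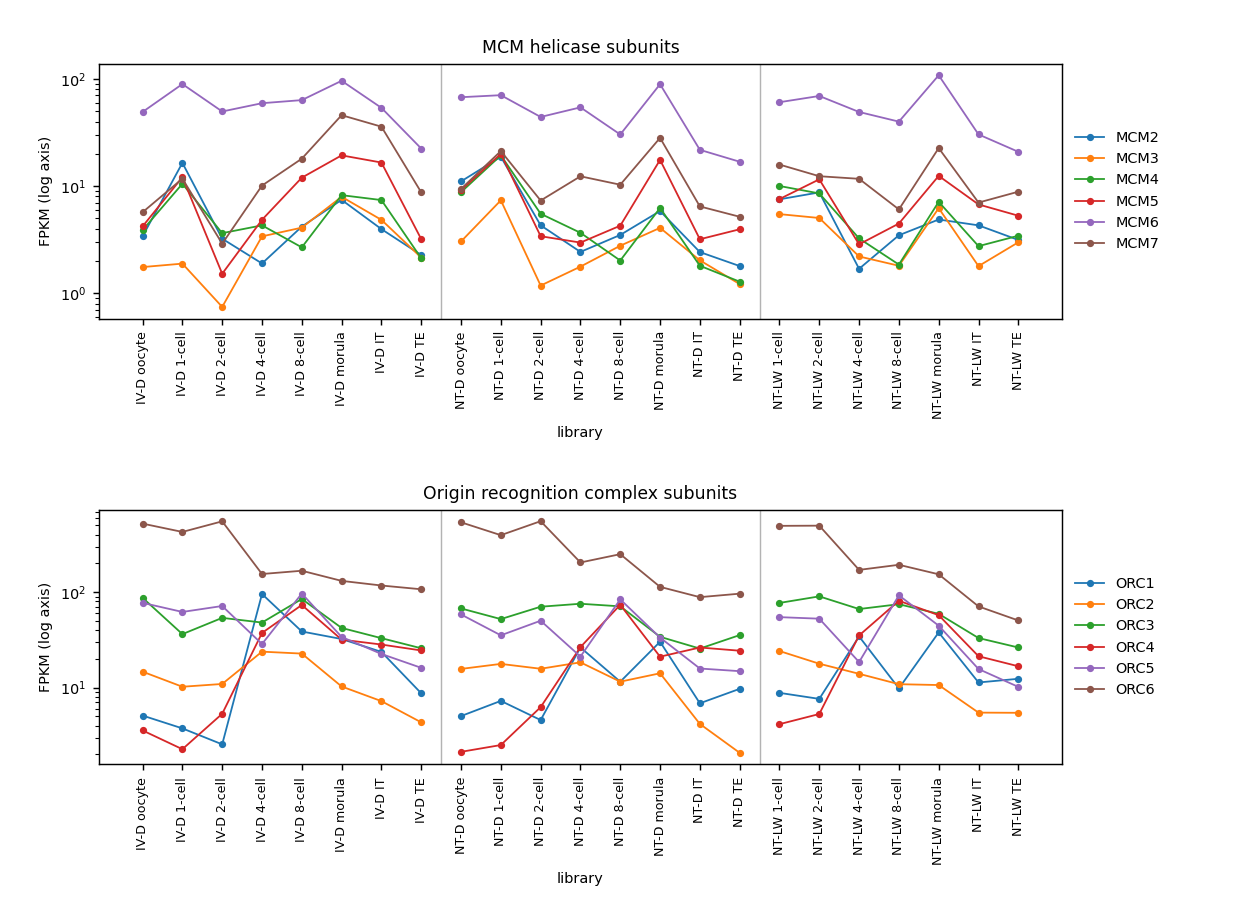
FPKM on a log axis of the 6 MCM ring subunits (top) and the 6 ORC subunits (bottom) in each of the 23 libraries, 1 line per subunit and a vertical line between groups. MCM6 and ORC6 lie on top in every library, ORC4 is at 2.12 to 6.24 FPKM up to the 2-cell stage and at 73.4 to 81.3 at the 8-cell stage, and MCM5 and MCM7 are lower in both cloned IT parts than in IV-D IT.

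The E2F factors of the table were those that repress. E2F4 was highest at the 1-cell stage in IV-D and NT-D (14.8 and 21.2) and at the 2-cell stage in NT-LW (20.2). In IT it was 12.6 in IV-D against 4.19 and 4.08. The atypical factors E2F7 and E2F8 were at most 4.31 and 12.8 FPKM.

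Of the APC/C subunits, CDC27 was present from the oocyte on (24.1 to 81.7 FPKM in IV-D up to the 8-cell stage), whereas CDC23 and CDC26 were under 1 up to the 2-cell stage in every group. CDC23 was then 5.08 in the IV-D 4-cell library and 0.874 and 1.74 in the clones. CDC16 was 5.29 at the 4-cell and 60.3 at the 8-cell stage of IV-D, with 28.9 and 24.4 in the 8-cell clones.

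Several cyclins and CDKs of transcription were low up to the 2-cell stage and high from the 4-cell or 8-cell stage on. CCNC, the cyclin of the Mediator kinase, was 1.85 in oocytes, 4.16, 4.59, 57.3 and 93.8 in 1-, 2-, 4- and 8-cell embryos, 105 in morulae, 72.3 in IT and 70.6 in TE in IV-D. CDK7, which with CCNH activates other CDKs and acts in TFIIH, was 37 at the 4-cell and 259.9 at the 8-cell stage, and 205 and 160.1 in the 8-cell clones. CDK9, the kinase that releases paused polymerase, was 32.1 in IV-D IT and 5.92, 5.88 and 4.58 in the TE parts of NT-LW, IV-D and NT-D. CCNK, the cyclin of CDK12 and CDK13, had its highest values in early stages, at 89 in the IV-D oocyte and 129 in the NT-LW 1-cell library. Over all groups it was 27.2 to 129 up to the 4-cell stage and 8.41 to 42.6 from the 8-cell stage on, so the ranges overlapped.

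Other members of the cyclin and CDK names had sharp patterns of their own. CCNP was 34.7 and 47.3 in the IV-D oocyte and 1-cell library and 0.909 at the 2-cell stage. NT-D went from 139 in the oocyte to 62.9 and 1.03, while the NT-LW 2-cell library still had 16.7. CCNG2, a cyclin linked to arrest, was under 1 up to the 2-cell stage in every group, 13.8, 33 and 25.4 at the 4-cell stage of IV-D, NT-D and NT-LW, and 0.904 to 2.1 at the 8-cell stage. CCNG1, a p53 target, was 144 in IV-D TE and highest in NT-LW IT (183). CDK2AP2, named for binding CDK2, was the highest of these names, at 512 in the NT-D 1-cell library.

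Of the CDC names outside the cycle, CDC42, a GTPase of cell polarity, was the highest, with 24.4 at the 1-cell and 283 at the 8-cell stage of IV-D and 417 and 421 in the 8-cell clones. CDC34, the ubiquitin-conjugating enzyme of the SCF ligases, was highest in IV-D IT (75.4).

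Peaks were spread unevenly over the stages. Of 84 members that reached FPKM 1 in IV-D, 18 had their top at the 8-cell stage, 16 in 4-cell embryos, 15 in the 1-cell library, 13 in IT and 4 in TE. These were 21.4%, 19.0%, 17.9%, 15.48% and 4.76% of them, against 17.4%, 14.6%, 16.4%, 12.4% and 13.1% of all genes. Among the members with their top in IT were CDK4, CCND3, CDK9, CDC34 and CDKN1C. In NT-D, 29 of 85 peaked at the 1-cell stage, 23 in the morula, 2 in IT and 1 in TE, or 34.1%, 27.1%, 2.35% and 1.18% against 23%, 21.3%, 7.8% and 10.5% of all genes. In NT-LW the IT and TE parts held 3 and 1 peaks, or 3.53% and 1.18% against 10.6% and 8.12%.

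For the comparisons, a gene was called higher or lower when log2(FPKM + 1) differed by more than 1, a 2-fold difference for abundant genes and more for low ones, and when either library reached FPKM 1. Intervals of a fold are exact 95% intervals of counting error alone, without variation between embryos. Because FPKM depends on the total of a library, the split into higher and lower was also read after median-ratio scaling, which sets the typical gene of each library level, and after rescaling each library to the same sum over the table. Those splits are given where they moved by over 10 percentage points. In the clone comparisons, NT-D and NT-LW share the IV-D library of their stage, so their values are set side by side without counting one as support for the other.

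From the IV-D oocyte to the 1-cell stage the members moved about as all genes did. Of 73 members tested, 15 were higher and 6 lower, a share of 20.5% and 8.22%, against 13.7% and 7.64% of all genes, with 13 higher and 10 lower after median-ratio scaling and 14 higher and 10 lower after rescaling. MCM2, MCM4, MCM5 and CDC45 were among those higher, MCM2 by 4.84-fold (interval 4.27 to 5.5), with CCNY (a membrane cyclin of CDK14) and CDK9 at 4.42-fold (interval 3.93 to 4.99) and 4.13-fold (interval 3.61 to 4.75). CCNB2, CCNK and CDKN2B were lower by 4.06-fold (interval 3.85 to 4.3), 3.27-fold (interval 3.05 to 3.52) and 3.13-fold (interval 2.85 to 3.44).

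Over the first cleavage of IV-D embryos, 1-cell to 2-cell, most called members were lower. Of 73 members tested, 5 were higher and 23 lower, a share of 6.85% and 31.5%, against 6.59% and 24.6% of all genes, with 10 higher and 15 lower after median-ratio scaling. CDK1 was higher by 9.33-fold (interval 8.35 to 10.4), CDKN2B by 6.5-fold (interval 5.95 to 7.1) and CDC42 by 2.85-fold (interval 2.67 to 3.05). Before that scaling, 6 of 18 of the licensing group were lower, CDC45, CDC7, MCM2, MCM4, MCM5 and MCM7, and MCM5 was so by 7.96-fold (interval 6.23 to 10.3). CCNP was lower by 52-fold (interval 32.6 to 88.3) and CDC34 by 6.25-fold (interval 5.26 to 7.47). The IV-D 2-cell library had the fewest genes at FPKM 1, 5931, and the fewest members, 64. The IV-D 1-cell library, shared with the step before, had fibroblast markers at 67.2 FPKM in sum, against 5.08 in the oocyte and 5.0 in the 2-cell library.

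Of the IV-D steps, that from 2-cell to 4-cell had the most members higher. Of 78 members tested, 39 were higher and 8 lower, a share of 50% and 10.3%, against 34.4% and 12.3% of all genes, and the median difference on the log2 scale was 0.97 over the members and 0.46 over all genes. After median-ratio scaling the split was 21 higher and 14 lower. Before that scaling the transcription and RNA group had 9 of 12 higher and none lower, the licensing group 9 higher and 2 lower of 18, ORC5 and ORC6. ORC1 was higher by 37.6-fold (interval 32.4 to 44), CCNG2 by 51.1-fold (interval 30.7 to 92) and CCNC by 12.5-fold (interval 10.9 to 14.3). ORC6 was lower by 3.56-fold (interval 3.44 to 3.7), CDK17 by 2.84-fold (interval 2.32 to 3.5) and CDKN2B by 2.58-fold (interval 2.43 to 2.74).

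Between 4-cell and 8-cell IV-D embryos fewer members passed the rule than genes at large. Of 82 members tested, 15 were higher and 17 lower, a share of 18.3% and 20.7%, against 35% and 28.1% of all genes. After median-ratio scaling they were 12 higher and 23 lower. CDC16 was higher, with the values given above, CDK1 by 8.06-fold (interval 7.82 to 8.31) and CDK7 by 7.01-fold (interval 6.69 to 7.36). Lower were WEE2 by 45.4-fold (interval 40.5 to 51), CDKN2B by 54.3-fold (interval 38.3 to 79.7) and CCNG2 by 15.2-fold (interval 11.2 to 21.1).

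The 8-cell to morula step was close to the background. Of 80 members tested, 10 were higher and 10 lower, a share of 12.5% and 12.5%, against 12.3% and 13.6% of all genes. CCNB1, CCNB3 and CDK1 were lower, CCNB3 by 4.09-fold (interval 3.74 to 4.47), together with CCNE2 (4.0-fold (interval 3.27 to 4.91)) and CDK7 (3.02-fold (interval 2.93 to 3.11)). CDC34, CDK2AP1 and CDK4 were higher by 4.5-fold (interval 3.93 to 5.18), 3.74-fold (interval 3.43 to 4.09) and 3.32-fold (interval 3.07 to 3.6).

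At the blastocyst the parts of the embryo differed. Between morula and IT, 5 of 81 members were higher and 5 lower, or 6.17% each, against 7.7% and 7.59% of all genes, and 5 higher and 0 lower after median-ratio scaling. CDKN1C was higher by 5.0-fold (interval 4.34 to 5.79), CCND3 by 2.69-fold (interval 2.25 to 3.23) and CDC34 by 2.25-fold (interval 2.1 to 2.41), and MCM10 was lower by 2.36-fold (interval 2.24 to 2.49) and CDK5RAP2, a centrosome protein, by 2.42-fold (interval 2.06 to 2.87), neither past the rule after that scaling.

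Between morula and TE, of 80 members tested, 4 were higher and 30 lower, a share of 5% and 37.5%, against 12% and 24.6% of all genes. The median difference was -0.71 over the members and -0.38 over all genes. Of the 18 licensing and firing members 12 were lower and none higher, or 10 and none after median-ratio scaling, and all 4 mitotic members were lower, or 3 after that scaling. CCNE1 was lower by 17.2-fold (interval 13.2 to 22.9), MCM5 by 6.04-fold (interval 4.93 to 7.48) and MCM7 by 5.25-fold (interval 4.79 to 5.75). Higher were CDKN1A by 24.9-fold (interval 11.1 to 69.4), CCNI, a cyclin with little change over the cycle, by 3.09-fold (interval 2.79 to 3.42), and CCNG1 by 2.17-fold (interval 2.08 to 2.26).

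The direct comparison of TE with IT within IV-D also had more members lower than higher. Of 81 members tested, 2 were higher and 26 lower, a share of 2.47% and 32.1%, against 9.83% and 18% of all genes, with 2 higher and 22 lower after median-ratio scaling, and a median of -0.62 over the members and -0.19 over all genes. CCND3, CCNE1 and CDK9 were lower in TE by 12.2-fold (interval 8.24 to 18.7), 9.59-fold (interval 7.31 to 12.8) and 5.46-fold (interval 4.78 to 6.26). Of the 4 mitotic members CCNB1, CCNB2 and CDK1 were lower, CCNB2 no longer so after that scaling, and CCNB3 did not pass the rule. Of the licensing and firing members 7 of 18 were lower under both scalings, CDC6, MCM4, MCM5, MCM6, MCM7, MCM9 and ORC1. CDKN1A was higher in TE by 4.04-fold (interval 2.73 to 6.14) and CCNI by 2.89-fold (interval 2.61 to 3.2).

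**Figure D4:**
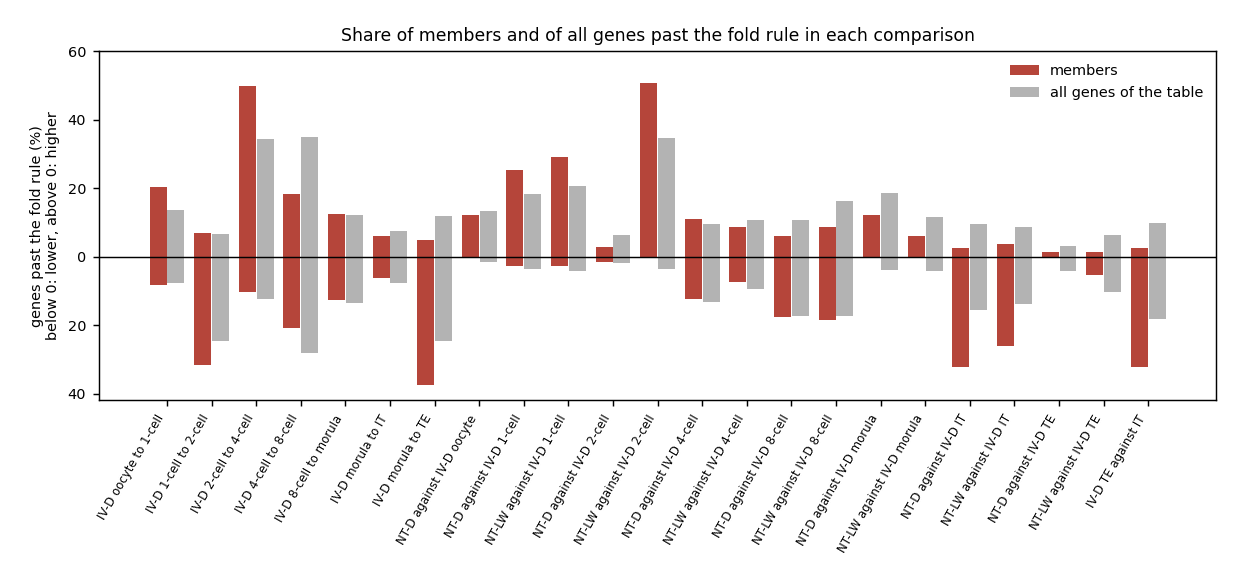
Share of members (red) and of all genes of the table (grey) past the fold rule in 23 comparisons, as percent of those tested, with genes higher drawn above 0 and genes lower below it. On the lower side the shares of members and of all genes are 32.1% and 15.4% for NT-D IT and 37.5% and 24.6% for IV-D morula to TE, and on the higher side they are 50.7% and 34.7% for NT-LW 2-cell and 50% and 34.4% for IV-D 2-cell to 4-cell.

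The oocytes matured in vitro held more of some members than those matured in the sow. Of 74 members tested, 9 were higher and 0 lower, a share of 12.2% and 0%, against 13.3% and 1.51% of all genes, a share near the background. After median-ratio scaling there were 5 higher and 5 lower, and after rescaling 9 higher and 3 lower. CCNY, CCNP and CCNI were higher by 5.11-fold (interval 4.55 to 5.75), 4.0-fold (interval 3.66 to 4.38) and 3.96-fold (interval 3.38 to 4.66). CCNB1 was 307 against 602 FPKM, a log2 difference of -0.97 that did not pass the rule. After median-ratio scaling the difference was -1.34, and CCNB1 was then called lower together with CCNB2, CCNH, CCNK and CDC6.

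In 1-cell embryos the clones were mostly higher. For NT-D, 19 of 75 members were higher and 2 lower, or 25.3% and 2.67% against 18.5% and 3.44% of all genes. For NT-LW it was 22 higher and 2 lower of 75, or 29.3% and 2.67% against 20.8% and 4.12%. These directions depended on the scaling, since after median-ratio scaling the splits were 5 higher and 6 lower in NT-D and 8 higher and 10 lower in NT-LW. CDK1 was higher in both and stayed so, by 3.36-fold (interval 2.97 to 3.8) in NT-D and 4.9-fold (interval 4.36 to 5.51) in NT-LW. In NT-LW, CCNB2 and CCNK were above IV-D by 4.91-fold (interval 4.65 to 5.19) and 4.74-fold (interval 4.42 to 5.08). In NT-D, CCNI and CDK13 were above it by 3.22-fold (interval 2.9 to 3.58) and 2.92-fold (interval 2.57 to 3.33), CDK13 there no longer past the rule after median-ratio scaling. CCNB2 and CCNK were above IV-D in NT-D too, with 3285 against 1507 and 1928 against 927 fragments before scaling for depth. CDK13 was so in NT-LW, with 1091 against 321 fragments. Lower were CCNB1 and CDC45 in NT-D, by 2.22-fold (interval 2.18 to 2.27) and 2.23-fold (interval 2.0 to 2.5), and CDKN3 and MCM2 in NT-LW, by 2.29-fold (interval 2.17 to 2.43) and 2.19-fold (interval 1.99 to 2.41). The IV-D library in these comparisons is the one with fibroblast markers at 67.2 FPKM in sum, against 95.8 and 99.7 in the clones.

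At the 2-cell stage the clone groups parted. In NT-D 2 of 71 members were higher and 1 lower, or 2.82% and 1.41% against 6.48% and 1.9% of all genes, with 0 higher and 3 lower after median-ratio scaling and 8 higher and 1 lower after rescaling. CDC34 was higher by 2.65-fold (interval 2.19 to 3.22) and MCM7 by 2.53-fold (interval 2.18 to 2.93), and MCM8 was lower by 3.21-fold (interval 2.45 to 4.26). Only MCM8 of the 3 passed the rule after median-ratio scaling too. In NT-LW 38 of 75 were higher and none lower, 50.7% against 34.7% of all genes higher and 3.51% lower, with medians of 1.04 over the members and 0.66 over all genes. After median-ratio scaling the split was 13 higher and 10 lower. CDC34, CCNP and CDK9 were higher by 15.2-fold (interval 13 to 18), 18.4-fold (interval 11.4 to 31.5) and 7.17-fold (interval 6.22 to 8.29). All 3 were lower in IV-D 2-cell than in IV-D 1-cell embryos. The result rests on the single NT-LW 2-cell library, which is part of the step at which NT-LW differed from both other groups, and without it only the NT-D values remain.

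At the 4-cell stage the clones differed from IV-D in a few members with large folds. The study reports that biological replicates varied most at this stage, which the intervals below do not cover. In NT-D 9 of 81 were higher and 10 lower, or 11.1% and 12.3% against 9.74% and 13.2% of all genes. In NT-LW it was 7 and 6 of 81, or 8.64% and 7.41% against 10.8% and 9.43%. These shares were near the background, and after rescaling the splits were 9 higher and 16 lower in NT-D and 6 higher and 10 lower in NT-LW. ORC1 was lower by 3.63-fold (interval 3.41 to 3.87) in NT-D and 2.79-fold (interval 2.64 to 2.94) in NT-LW, MCM9 by 2.81-fold (interval 2.32 to 3.4) and 3.29-fold (interval 2.74 to 3.96), and CDC37L1, a relative of the chaperone partner CDC37, by 4.06-fold (interval 3.64 to 4.54) and 3.23-fold (interval 2.95 to 3.55). CDK5RAP2 was lower by 6.33-fold (interval 5.1 to 7.93) in NT-D, whereas NT-LW had 13.1 FPKM against 16.9 in IV-D, which did not pass the rule. CCND2 was higher by 9.55-fold (interval 6.79 to 13.8) and 19.1-fold (interval 13.8 to 27.4), WEE1 by 4.41-fold (interval 3.58 to 5.47) and 3.4-fold (interval 2.76 to 4.22), and CCNG1 by 3.23-fold (interval 2.94 to 3.55) and 4.07-fold (interval 3.72 to 4.45). CCNG2 was higher by 2.39-fold (interval 2.16 to 2.66) in NT-D and CCNI by 2.5-fold (interval 2.23 to 2.82) in NT-LW, and CDC34 by 2.32-fold (interval 2.0 to 2.69) and 2.12-fold (interval 1.84 to 2.46), the latter not past the rule after median-ratio scaling. CCNI was above IV-D in NT-D too, with 822 against 385 fragments before scaling for depth.

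**Figure D5:**
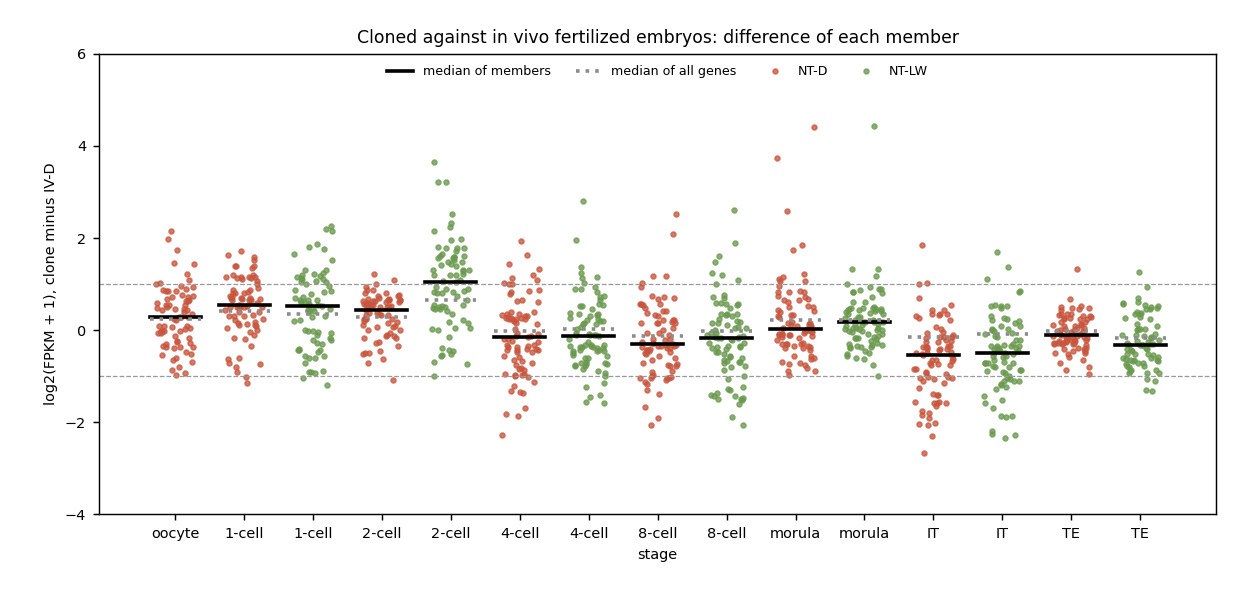
Difference in log2(FPKM + 1) of each tested member between a cloned library and the IV-D library of the same stage (points; NT-D red, NT-LW green), with the median of the members (black bar) and of all genes (dotted grey) and dashed lines at a difference of 1 either way. The members' median lies below that of all genes in both IT comparisons, at -0.54 and -0.50 against -0.15 and -0.10, and above it in the NT-LW 2-cell comparison; the 2 highest points in the morula are CDKN1A.

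At the 8-cell stage the clones had less CCNB1, CCNB3, ORC1 and CDC6 and more WEE2. In NT-D 5 of 80 members were higher and 14 lower, or 6.25% and 17.5% against 10.8% and 17.4% of all genes, with 6 higher and 5 lower after median-ratio scaling and 2 higher and 21 lower after rescaling. NT-LW had 7 higher and 15 lower of 81, or 8.64% and 18.5% against 16.3% and 17.3%. CCNB1 was lower by 2.11-fold (interval 2.08 to 2.14) in NT-D and 2.82-fold (interval 2.78 to 2.87) in NT-LW, the former no longer past the rule after median-ratio scaling. CCNB3 was lower by 4.75-fold (interval 4.31 to 5.25) and 4.71-fold (interval 4.24 to 5.24), CDC6 by 4.53-fold (interval 4.02 to 5.13) and 3.22-fold (interval 2.87 to 3.61), and ORC1 by 3.36-fold (interval 3.08 to 3.67) and 3.95-fold (interval 3.58 to 4.36), all under both scalings. CCNB3 lies on the X chromosome, so for it the sex of the embryos and the cloning cannot be told apart. CDK1 was not called, at 987 and 668 against 869 FPKM. Of the 18 licensing and firing members 5 were lower and none higher in each clone group, or 3 in NT-D and 4 in NT-LW after median-ratio scaling. WEE2 was higher by 4.7-fold (interval 4.15 to 5.34) and 6.79-fold (interval 6.0 to 7.71), CDKN2B by 20.5-fold (interval 14.3 to 30.2) and 12.2-fold (interval 8.47 to 18.2), and CDKN3 by 2.28-fold (interval 2.13 to 2.43) and 2.39-fold (interval 2.23 to 2.56). CCNI was higher by 2.52-fold (interval 2.16 to 2.94) and 3.19-fold (interval 2.75 to 3.72), and CDK5RAP1, an enzyme that modifies mitochondrial tRNA, was lower by 3.26-fold (interval 2.95 to 3.61) in NT-LW. CDK5RAP1 was below IV-D in NT-D too, with 660 against 1946 fragments before scaling for depth.

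In morulae a smaller share of members than of all genes passed the rule, CDKN1A with the largest fold. No member was called lower in either clone group on the FPKM scale. NT-D had 10 of 82 higher, 12.2% against 18.7% of all genes higher and 3.88% lower, with 5 higher and 4 lower after median-ratio scaling and 10 higher and 2 lower after rescaling. NT-LW had 5 of 81 higher, 6.17% against 11.6% and 4.07%, and 2 higher and 1 lower after median-ratio scaling. Those lower after median-ratio scaling were CCND3, CCNE1, CDK1 and CDK5RAP1 in NT-D and MCM7 in NT-LW. Before it, MCM7 in NT-LW was below IV-D by 2.03-fold (interval 1.91 to 2.15), just short of the rule. CDKN1A was higher by 55.2-fold (interval 25.1 to 152) in NT-D and 55.8-fold (interval 25.3 to 153) in NT-LW, intervals that are wide because of the 6 fragments in IV-D. In NT-D WEE2 was higher by 16-fold (interval 13.8 to 18.6) and CDK13 by 4.0-fold (interval 3.49 to 4.59), beside the oocyte marker sum of 349 given above. CCND2 was higher by 33.9-fold (interval 21.2 to 57.6) in NT-D and 10.9-fold (interval 6.68 to 18.8) in NT-LW, the latter with a log2 difference of 0.99 after median-ratio scaling. The fibroblast marker sum was then 8.41 and 10.8 against 4.80 in IV-D. Most of that IV-D sum was PDGFRA, also an inner cell mass marker, at 4.26 against 0.859 in NT-D and 2.52 in NT-LW. S100A4 was 1.76 in NT-D, 5.42 in NT-LW and 0 in IV-D, and VIM 2.81, 2.24 and 0.411.

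In the IT part most called members were lower in the clones than in IV-D. In NT-D 2 of 81 were higher and 26 lower, or 2.47% and 32.1% against 9.47% and 15.4% of all genes, and in NT-LW 3 and 21 of 81, or 3.7% and 25.9% against 8.7% and 13.7%. The medians were -0.54 over the members and -0.15 over all genes in NT-D and -0.50 over the members and -0.10 over all genes in NT-LW. After median-ratio scaling the splits were 3 higher and 20 lower and 3 higher and 19 lower. The G1 members CCND3, CCNE1 and CDK4 were all lower, CCND3 by 12.6-fold (interval 8.98 to 18.1) and 7.62-fold (interval 5.82 to 10.1), CCNE1 by 4.48-fold (interval 3.79 to 5.32) and 4.52-fold (interval 3.82 to 5.36), and CDK4 by 3.59-fold (interval 3.36 to 3.83) and 3.94-fold (interval 3.68 to 4.22). Of the licensing and firing members 9 and 8 of 18 were lower and none higher. MCM7 was lower by 5.55-fold (interval 5.07 to 6.09) and 5.11-fold (interval 4.68 to 5.58), and MCM5 by 5.19-fold (interval 4.34 to 6.25) and 2.46-fold (interval 2.15 to 2.82). CDK9 and CDKN1C were lower as well, in NT-LW by 5.85-fold (interval 5.2 to 6.6) and 5.68-fold (interval 4.9 to 6.62). Higher were CDKN1A by 4.33-fold (interval 2.98 to 6.47) and 3.85-fold (interval 2.63 to 5.77), CCNI by 2.14-fold (interval 1.94 to 2.37) and 2.73-fold (interval 2.48 to 3.02), and CCNG1 in NT-LW by 2.17-fold (interval 2.09 to 2.24).

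For CCNE1 the 3 TE libraries held 1.37, 1.18 and 2.43 FPKM and the cloned IT parts 2.94 and 2.92, with 13.2 in IV-D IT. IT is a cut piece with an unstated share of trophectoderm, and most inner cell mass markers of the list were lower in both cloned IT parts. In the IT parts of IV-D, NT-D and NT-LW, NANOG was 9.8, 5.0 and 3.76 and KLF4 23.6, 9.87 and 9.74. GSC was 39.4, 4.29 and 7.32 and LIN28A 29.6, 8.93 and 8.8. PDGFRA, which is also on the fibroblast list, was 11.6, 1.66 and 2.22. GATA6 was 37.7, 34 and 37.4. DPPA5 went the other way, at 49.6, 281 and 359. It made up most of the sum of the list in the clones, which was 201, 344 and 428.5 in the 3 groups. The trophectoderm marker sum was 1653 in IV-D IT, 1591 in NT-D IT and 1996 in NT-LW IT, and the part of tissue makeup in the difference was not tested.

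In TE few members passed the rule in either clone group. NT-D had 1 of 76 higher and none lower, or 1.32% against 3.13% and 4.23% of all genes higher and lower, and 1 higher and 1 lower after rescaling. NT-LW had 1 of 75 higher and 4 lower, or 1.33% and 5.33% against 6.26% and 10.2%, with 2 higher and 2 lower after median-ratio scaling and 1 higher and 11 lower after rescaling. The member called in both was CDK2AP2, higher by 2.6-fold (interval 2.33 to 2.91) and 2.48-fold (interval 2.23 to 2.77). CDKN1A was lower by 2.72-fold (interval 1.91 to 3.93) in NT-LW, with 13.1 FPKM in NT-D and 15 in IV-D. CDK4, ORC6 and CDC23 were lower in NT-LW by 2.28-fold (interval 2.07 to 2.5), 2.12-fold (interval 1.98 to 2.27) and 3.71-fold (interval 2.67 to 5.23), of which CDC23 alone passed the rule after median-ratio scaling.

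Reading the recovered fragments with an exact binomial test, at a Benjamini-Hochberg adjusted p under 0.005 and a fold over 2, compares 2 libraries and not conditions. In the NT-D oocyte comparison it called 16 of 74 members and 24.1% of all genes, and in NT-D 2-cell 10 of 71 and 17.3%. In NT-LW morula it called 8 of 81 and 22.8%, in NT-D TE 5 of 76 and 12% and in NT-LW TE 14 of 75 and 23.4%. The share of members was below that of all genes in each of these comparisons.

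Other genes of the pathway that the symbols do not catch were read from a list of 66, of which 47 were in the table. At the 2-cell to 4-cell step of IV-D 13 of 45 tested were higher and 7 lower, or 28.9% and 15.6% against 34.4% and 12.3% of all genes, with CHEK2, a checkpoint kinase, at 2.75 and 124 FPKM and CKS2, a small subunit of CDK complexes, at 264 and 1909. The 4-cell clones held CHEK2 at 9.56 in NT-D and 26.4 in NT-LW. In 8-cell against 4-cell IV-D embryos 17 of 47 were higher and 6 lower, or 36.2% and 12.8% against 35% and 28.1%, with GINS1, a part of the active helicase, going from 1.08 to 34.6 and BTG4, which drives the removal of maternal RNA, from 1169 to 16.9. From morula to TE 1 was higher and 16 lower of 46, or 2.17% and 34.8% against 12% and 24.6%.

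In the cloned IT parts 2 were higher and 15 lower of 45 in NT-D, or 4.44% and 33.3% against 9.47% and 15.4% of all genes, and none higher and 9 lower of 45 in NT-LW, 20% lower against 13.7%. CDT1, which loads the MCM ring together with CDC6, was 10.5 in IV-D IT, 0.795 in NT-D IT and 2.13 in NT-LW IT, and 3.15 in IV-D TE. CUL1, the scaffold of the SCF ligases, was 88.3, 25.6 and 25.3 in the 3 IT parts and 17.7 in IV-D TE. In cloned morulae RB1, the retinoblastoma protein that holds E2F in check, was 11.1 and 11.7 against 2.0 FPKM in IV-D.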

How the data were processed

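RNA was amplified with the SMART-Seq v4 kit, and libraries were made with NEBNext Ultra and sequenced in pairs. By the methods and the submitters' processing notes, the authors aligned the reads to Sscrofa11.1 with HISAT2 2.0.4, counted them per gene with HTSeq 0.9.1 and deposited FPKM values of 8603 Ensembl genes in 23 libraries. How those genes were selected is not given in the sources used here, and DESeq is also named. Shares of all genes therefore refer to this table alone.

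Members were found by symbol and placed in 10 role groups by hand. The members and the lists of related genes and markers were chosen with earlier results of these data known. Named were 37 core genes of the table, out of a list of 53, the 3 members with the largest difference each way in each comparison among those past the rule and at FPKM 10, and the highest member of each role group. Other names, such as CDC23, CDC26 and CHEK2, were chosen after their values were seen.

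Differences were taken on log2(FPKM + 1), a scale that understates the fold of low genes. A gene passed the rule at a difference over 1 with FPKM of at least 1 in one of both libraries. Genes were fitted to whole fragments, which was possible for all 8603, with a largest relative deviation of 7.72e-08 for genes over 1000 fragments. Intervals of folds are exact binomial at 95% and cover counting error only, since amplified fragments are not independent molecules. With 1 library per condition no test between conditions was made. The 5 alternatives were a pseudocount of 0.1, no minimum FPKM, median-ratio scaling over 6913 genes, each library brought to a total of 1000000 and an exact binomial test on fragments with a Benjamini-Hochberg adjusted p under 0.005 and a fold over 2. The counting and the calls were tested on simulated data. Windows before gene starts came from RefSeq's annotation and genome of Sscrofa11.1, and 81 of the 85 members had one. A further window is not reported here. The software was scipy 1.17.1, pandas 2.3.3 and numpy 2.4.6 under Python 3.11.15, with figures drawn by matplotlib 3.10.9.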

Additional observations from a re-analysis of the deposited data

Results flagged for a closer look

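Some members passed the fold rule in opposite directions over the same step in different groups. Values are differences of log2(FPKM + 1) between stages, followed by the difference between groups. None of these differences was tested, since each rests on 1 library per condition.

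Of these 14 differences, 7 involve the NT-LW 2-cell library. From the 1-cell to the 2-cell stage CDC34, the SCF ubiquitin-conjugating enzyme, moved by -2.39 in IV-D and -2.31 in NT-D and by 1.29 in NT-LW, group differences of -3.68 and -3.60. From the 2-cell to the 4-cell stage it moved by 1.10 in IV-D, 1.01 in NT-D and -1.53 in NT-LW, group differences of 2.63 and 2.54. Over the same step the difference between IV-D and NT-LW was 3.53 for CCND3, 2.98 for CDK9 and 2.92 for MCM5. The part of that library in these values was not tested beyond setting NT-D beside it.

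CCNK differed by -3.14 between IV-D and NT-LW from the oocyte to the 1-cell stage, with NT-LW measured from the NT-D oocyte library. WEE2 differed by 3.42 between NT-D and NT-LW from the 8-cell stage to the morula, at 1.06 and -2.35.

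CDKN1A was higher in IV-D IT and TE than in the IV-D morula and lower in the cloned parts than in the cloned morulae. The difference to IV-D was 2.56 for NT-D and 2.73 for NT-LW from morula to IT, and 4.59 and 5.73 from morula to TE. CCNG2 differed by 2.90 between NT-D and NT-LW from morula to IT, at 1.89 and -1.01.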

How the results depend on the processing

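Of 115 counts of members past the rule under the 5 alternatives, 97 were within 1.5 times the reported count and 18 were not. With median-ratio scaling the count was 5 for IV-D morula to IT (10 reported), 11 for NT-D 1-cell (21), 23 for NT-LW 2-cell (38), 11 for NT-D 8-cell (19) and 3 for NT-LW morula (5). With a pseudocount of 0.1 it was 17 for the NT-D oocyte (9), 9 for NT-D 2-cell (3), 8 for NT-LW morula (5), 5 for NT-D TE (1) and 13 for NT-LW TE (5). With the binomial test on fragments it was 16, 10, 8, 5 and 14 in the same order. With rescaling it was 9 for NT-D 2-cell, 2 for NT-D TE and 12 for NT-LW TE. The cause was not tested. The differences of members that passed the rule kept their sign under these alternatives, 2146 with the same call and 158 no longer past the rule, of which 140 were under median-ratio scaling. The lower counts in both cloned IT parts and in IV-D TE kept their direction under all 5 alternatives. No paired analysis was possible because each condition has 1 library. Leaving out a replicate was likewise not possible. Depth limits members under 1 FPKM, where a few fragments carry the value.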
